A study of Homo sapiens with 6 samples.

Results

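The members described here are 38 human genes of the G1/S switch, the step at which a cell commits to copying its DNA. They were taken by symbol from a list of cyclins and their kinases, CDK inhibitors, the RB and E2F families and subunits of the DREAM complex, and all 38 were found among the 58174 genes of the deposited table. The libraries are polyA mRNA-seq of KNS42, an established line from a pediatric glioblastoma (GBM), harvested 72 h after transfection with a control siRNA (siC, n = 3) or with an siRNA pool against MSI1 (siMSI1, n = 3). The RNA-binding protein MSI1 (Musashi1) is a marker of neural stem cells. All libraries come from 1 cell line and were compared at 1 time, and nothing in the labels says whether the replicates were separate cultures, so p-values measure the spread between these libraries, which may be technical.

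Cells pass from G1 into S phase when D-type cyclins with CDK4 or CDK6, and then cyclin E with CDK2, phosphorylate the retinoblastoma protein RB and its relatives, the pocket proteins. Hypophosphorylated pocket proteins hold E2F transcription factors, which act as dimers with a DP partner. Once released, the activator E2Fs switch on genes of DNA synthesis and of the switch itself, among them cyclin E and E2F1. CDK inhibitors of the CIP/KIP and INK4 families brake the kinases, and the SKP2 ubiquitin ligase removes the CIP/KIP inhibitor p27. In resting cells, repressor E2Fs, a pocket protein and the MuvB core of LIN proteins form the DREAM complex, which keeps cell cycle genes low.

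The values are FPKM, which scale reads by gene length and by a size of the library. This size was not just the total of reads on genes. The ratio of that total to it was 1.002, 0.996 and 1.004 in siC and 0.976, 0.998 and 1.024 in siMSI1. The knocked-down gene, MSI1, measured 63.7, 61.9 and 66.9 FPKM in siC against 12.1, 12.3 and 11.2 FPKM in siMSI1, so each library matched its label. The reads on genes numbered 13087025 to 18024080 per library. Of the glial line markers, VIM, NES and SOX2 were abundant, with siC means of 1035, 69.2 and 300.6 FPKM, S100B had 0 reads in all libraries, and the leukocyte, endothelial, epithelial and hepatocyte genes PTPRC, PECAM1, EPCAM and ALB had at most 8 reads in any library. GFAP, an astrocyte filament protein, rose by 1.46 on the log2 scale from a siC mean of 1.63 FPKM (limma adjusted p = 0.00090), and FABP7, a radial glia protein, fell by 1.12 (adjusted p = 0.00027).

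Upon MSI1 knockdown, 7 of the 36 tested members were lower and 4 were higher. The lower members were the cyclin CCNE1, its kinase CDK2, the CDK phosphatase CDC25A, the ligase subunit SKP2, the activators E2F1 and E2F2 and the DP partner TFDP1. The higher members were the CDK inhibitors CDKN1A, CDKN1B and CDKN2A and the repressor E2F5. A gene was called at an adjusted p of at most 0.01 (limma on log2(FPKM + 0.1), Benjamini-Hochberg over all 15069 tested genes). These counts depend on the libraries and the settings. Leaving out siMSI1 replicate 3 gave 7 lower and 3 higher members, where 1603 of all genes were called. Leaving out any one of the others gave 2 to 4 lower and 0 to 1 higher, where 517 to 885 genes were called. With no filter on low genes or with plain moderation there were 3 lower and 0 higher, where 792 and 847 genes were called. With none of these changes, 1655 genes were called. At the threshold of 0.01, 5.83% of all tested genes were lower, 5.15% were higher and 11.0% were called in either direction. The 3 siMSI1 values lay entirely below the 3 siC values for 16 of the 36 members and entirely above for 6, where this was so for 21.5% and 21.4% of all tested genes. The median log2 fold change was −0.23 over the members and 0.000015 over all tested genes. CCND1 and CDKN1C were below the mean of 0.5 FPKM needed for the test. In bulk RNA, fewer cells in a phase of the cycle and less RNA per cell cannot be told apart.

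**Figure D1:**
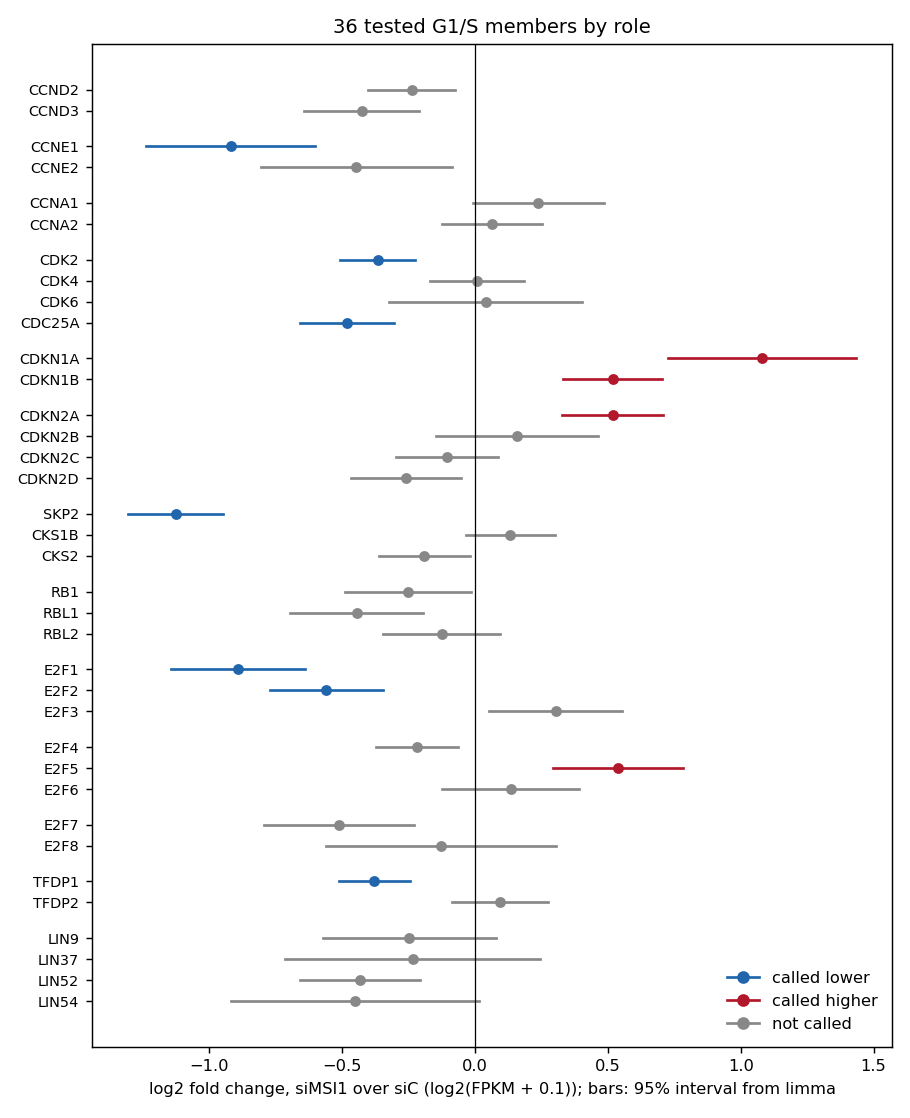
Log2 fold change of siMSI1 over siC for the 36 tested members, grouped by role from cyclins (top) to the MuvB core (bottom), with 95% intervals from limma. Calls are from all 6 libraries. Most were lost without any 1 library other than siMSI1 replicate 3, without which 9 of the 11 remained. The 7 members called lower (blue) lie between −1.13 and −0.37, the 4 called higher (red) between 0.52 and 1.08, and the 25 others are grey.

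The D-type cyclins, which start RB phosphorylation in response to mitogens, were represented by CCND2 and CCND3 in KNS42. CCND2 was at 37.8, 39.3 and 34.2 FPKM in siC against 31.0, 31.9 and 31.2 FPKM in siMSI1. All its siMSI1 values were below all siC values, with a log2 fold change of −0.24 that was not past the threshold (standard error, SE, 0.070, limma adjusted p = 0.042). CCND3 had a mean of 18.6 ± 0.858 FPKM in siC and 13.8 ± 1.61 FPKM in siMSI1 (SD, n = 3 each). Its libraries did not overlap either, and its log2 fold change of −0.43 lay just outside the threshold (adjusted p = 0.014). CCND1, the D-type cyclin of many epithelial cells, had 22 to 29 reads per library and 0.309 to 0.404 FPKM, and its groups overlapped. CCND2 took 66.2% of the summed D-type cyclin FPKM in siC and 68.9% in siMSI1.

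CCNE1 encodes cyclin E1, which activates CDK2 at the end of G1. It was at 5.26, 5.66 and 4.96 FPKM in siC against 3.35, 2.36 and 2.62 FPKM in siMSI1, and the groups did not overlap. The siMSI1 mean was 52.5% of that in siC, a log2 fold change of −0.92 (SE 0.137, limma adjusted p = 0.0032), on 79 to 261 reads per library. Its paralog CCNE2 went from 3.96 ± 0.185 to 2.92 ± 0.634 FPKM (SD, n = 3 each), with a log2 fold change of −0.45 and no call (adjusted p = 0.072). The A-type cyclins work in S phase and G2. CCNA2, the somatic one, was at 27.1, 29.8 and 26.4 FPKM in siC against 29.6, 30.9 and 26.6 FPKM in siMSI1. Its groups overlapped, and the 95% interval of its log2 fold change ran from −0.12 to 0.25. CCNA1, mainly a germline cyclin, was at 2.46 FPKM in siC and 2.92 in siMSI1 on average (log2 fold change 0.24, adjusted p = 0.14).

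Of the kinases, CDK2 was lower while CDK4 and CDK6 were not called. CDK2, the partner of cyclins E and A, was at 32.7, 31.2 and 33.3 FPKM in siC against 25.2, 25.7 and 24.5 FPKM in siMSI1. The log2 fold change was −0.37 (SE 0.061, limma adjusted p = 0.0047), with each siMSI1 library below each siC library. CDK4 was by far the most abundant kinase of the list, at 144.5, 133.8 and 150.5 FPKM in siC against 133.7, 146.1 and 151.4 FPKM in siMSI1. Its log2 fold change was 0.0078, with a 95% interval from −0.17 to 0.18. CDK6, with the same D-type cyclin partners as CDK4, had 2.24 to 2.96 FPKM in siC and 2.21 to 3.02 in siMSI1, and its interval from −0.32 to 0.40 leaves room for a change in either direction. CDC25A removes inhibitory phosphates from CDK2. It went from 12.5, 11.5 and 11.4 FPKM in siC to 8.37, 7.99 and 8.95 FPKM in siMSI1, and the groups did not overlap. This is a log2 fold change of −0.48 (SE 0.076, adjusted p = 0.0040).

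Of the 3 CIP/KIP inhibitors, which bind and block cyclin-CDK complexes, CDKN1A and CDKN1B were higher and CDKN1C was too low to test. CDKN1A encodes p21, an inhibitor under the control of p53 among other factors, and was at 4.42, 2.81 and 3.33 FPKM in siC against 7.32, 7.43 and 7.53 FPKM in siMSI1. The siC libraries were spread (SD 0.823) and the siMSI1 libraries close together (SD 0.108), and all siMSI1 values were above all siC values. CDKN1A rose to 211% of the siC mean, a log2 fold change of 1.08 (SE 0.152, limma adjusted p = 0.0025), on 146 to 330 reads per library. CDKN1B encodes p27 and was the main CIP/KIP transcript, with 87.0% of their summed FPKM in siC. It was at 22.8, 23.9 and 24.2 FPKM in siC against 35.7, 35.7 and 30.4 FPKM in siMSI1. The groups did not overlap, siMSI1 replicate 3 being the lowest of its group, and the log2 fold change was 0.52 (SE 0.080, adjusted p = 0.0037). CDKN1C, which encodes p57, had at most 1 read in any library, so that no difference could be detected at this depth. The summed FPKM of the CIP/KIP inhibitors was 27.1 ± 0.387 in siC and 41.4 ± 2.94 in siMSI1 (SD, n = 3 each).

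Among the INK4 inhibitors, which act on CDK4 and CDK6, CDKN2A alone was called. It was at 37.6, 35.4 and 41.4 FPKM in siC against 50.9, 54.9 and 58.0 FPKM in siMSI1, with no overlap. The log2 fold change was 0.52 (SE 0.082, limma adjusted p = 0.0040), on 2438 to 3605 reads per library. The gene encodes p16 and, from another first exon and reading frame, the p53 regulator ARF, and a value per gene cannot tell these transcripts apart. CDKN2C, which encodes p18, was the most abundant INK4 transcript in siC, at 50.3, 49.9 and 52.0 FPKM, and at 42.5, 52.1 and 47.2 FPKM in siMSI1. Its groups overlapped (adjusted p = 0.39). CDKN2D, which encodes p19, came to −0.26 in log2 fold change (adjusted p = 0.070), and CDKN2B, which encodes p15 next to CDKN2A, to 0.16 (adjusted p = 0.43). CDKN2A thereby went from 35.2% ± 1.82 to 45.9% ± 1.14 of the summed INK4 FPKM (SD, n = 3 each), while the sum itself overlapped between the groups.

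SKP2, the F-box protein that brings p27 to the SCF ubiquitin ligase, had the largest fall of all members. It was at 32.7, 33.0 and 30.4 FPKM in siC against 15.7, 14.8 and 13.5 FPKM in siMSI1, so that the highest siMSI1 library was far below the lowest siC library. The siMSI1 mean was 45.7% of that in siC, with a log2 fold change of −1.13 (SE 0.077, limma adjusted p = 0.00025). CKS1B, the cofactor SKP2 needs to recognise p27, was not called. It was at 46.9 to 47.1 FPKM in siC against 47.7 to 55.9 FPKM in siMSI1, a log2 fold change of 0.13 (adjusted p = 0.22). Its paralog CKS2, the most abundant transcript of all members, was at 183.2, 183.3 and 192.2 FPKM in siC against 153.7, 177.7 and 158.9 FPKM in siMSI1. All siMSI1 values of CKS2 were lower, with a log2 fold change of −0.19 that was not past the threshold (adjusted p = 0.097).

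**Figure D2:**
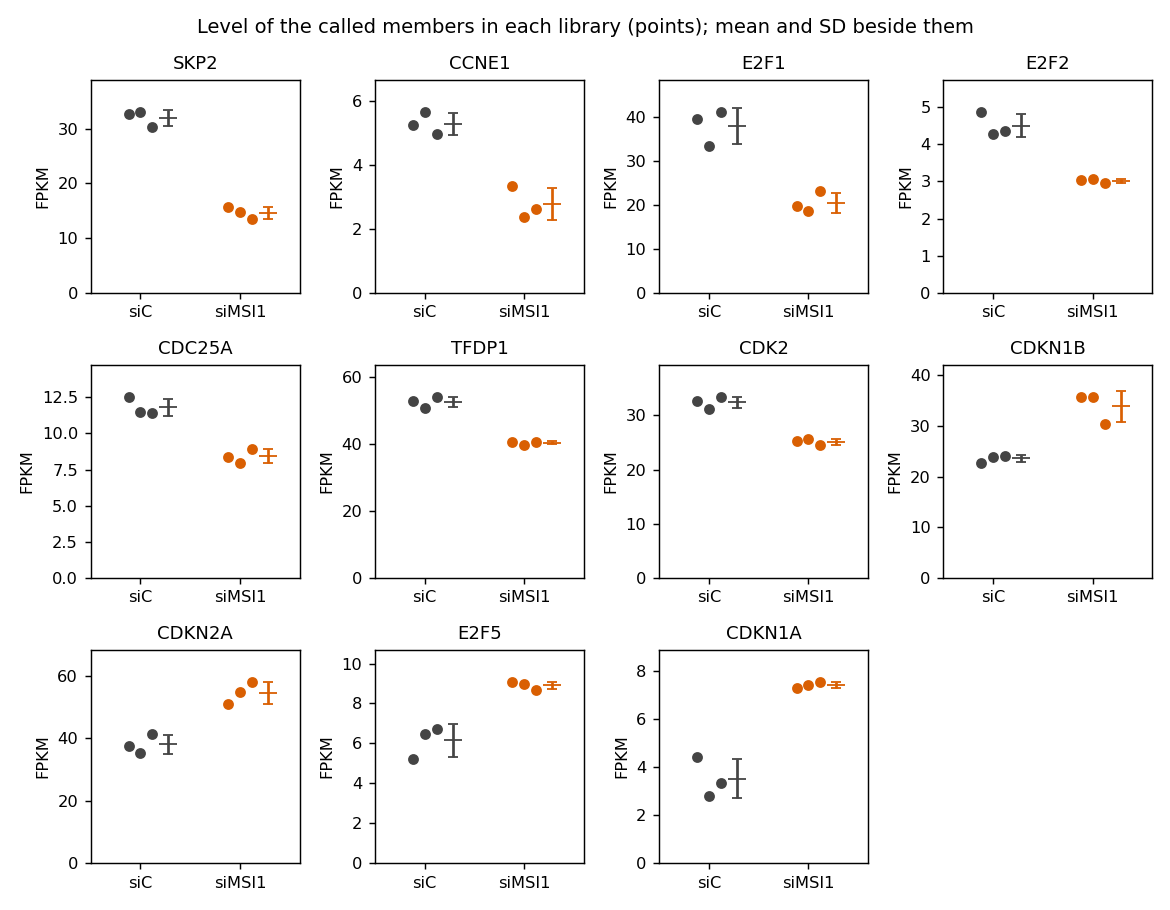
FPKM of the 11 called members in each library (points, 1 per library), with the mean and SD (n = 3) beside them and each axis starting at 0. In every panel the siC (dark grey) and siMSI1 (orange) libraries are apart, from SKP2, which fell most, to CDKN1A, which rose most, though only the calls of SKP2 and E2F1 held without any 1 library.

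None of the pocket proteins, which hold E2Fs in check, was called. RB1 was at 17.0, 19.1 and 15.1 FPKM in siC against 14.4, 15.3 and 13.2 FPKM in siMSI1, with overlapping groups and a log2 fold change of −0.25 (limma adjusted p = 0.11). RBL1, which encodes p107 and is itself an E2F target, went from 5.40 ± 0.381 to 3.94 ± 0.424 FPKM (SD, n = 3 each). That is −0.45 as a log2 fold change, with an adjusted p of 0.021, and the groups did not overlap. RBL2, which encodes p130, the pocket protein of resting cells, was at 13.0 FPKM in siC and 11.9 FPKM in siMSI1 on average (log2 fold change −0.13, adjusted p = 0.38).

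Of the activator E2Fs, E2F1 and E2F2 were lower and E2F3 was not called. E2F1 was at 39.6, 33.4 and 41.2 FPKM in siC against 19.7, 18.6 and 23.1 FPKM in siMSI1, with every siMSI1 library well below every siC library. The siMSI1 mean was 53.8% of that in siC, a log2 fold change of −0.89 (SE 0.109, limma adjusted p = 0.0014). E2F2 fell on a lower level, from 4.87, 4.28 and 4.37 FPKM in siC to 3.05, 3.06 and 2.96 FPKM in siMSI1, with no overlap and a log2 fold change of −0.56 (SE 0.092, adjusted p = 0.0047). E2F3 came to 0.30 in log2 fold change (adjusted p = 0.077), at 5.29, 5.96 and 5.12 FPKM in siC and 6.95, 7.43 and 5.93 FPKM in siMSI1, where the lowest siMSI1 library lay within the range of siC. E2F1 took 79.1% ± 2.40 of the summed activator FPKM in siC and 67.5% ± 4.24 in siMSI1, and E2F3 went from 11.5% ± 1.92 to 22.5% ± 3.57 (SD, n = 3 each). The sum of all 3 was 63.0% of the siC level.

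Of the repressors, E2F5 rose and E2F4 and E2F6 were not called. E2F4, the main E2F of DREAM, was at 23.1, 21.6 and 22.9 FPKM in siC against 19.8, 18.3 and 19.9 FPKM in siMSI1. Its siMSI1 values were all lower, with a log2 fold change of −0.22 (limma adjusted p = 0.047). E2F5, a close relative that also pairs with RBL2, was at 5.21, 6.48 and 6.74 FPKM in siC against 9.05, 8.97 and 8.69 FPKM in siMSI1. The groups did not overlap, and the log2 fold change was 0.54 (SE 0.106, adjusted p = 0.0096), just inside the threshold. This call was lost without each of the 6 libraries in turn (adjusted p 0.014 to 0.035), with a replicate block (0.011), with no filter on low genes (0.031) and with plain moderation (0.025). E2F6, which represses without a pocket protein, had 11.7 to 12.7 FPKM in siC and 11.2 to 14.7 FPKM in siMSI1, and came to 0.13 in log2 fold change (adjusted p = 0.43). The summed repressor FPKM was 40.9 ± 0.952 in siC and 41.7 ± 1.78 in siMSI1 (SD, n = 3 each), with overlapping groups.

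The atypical E2Fs, which repress E2F targets without a DP partner, were low. E2F7 was at 5.95, 5.61 and 5.48 FPKM in siC against 4.74, 3.64 and 3.58 FPKM in siMSI1, all lower and just outside the threshold (log2 fold change −0.51, adjusted p = 0.019 from limma). E2F8 had 1.80 to 2.91 FPKM over all libraries and overlapping groups (log2 fold change −0.13, adjusted p = 0.66). TFDP1, the main DP partner, was at 52.9, 50.9 and 54.1 FPKM in siC against 40.8, 39.9 and 40.6 FPKM in siMSI1. The groups were tight and apart, with a log2 fold change of −0.38 (SE 0.058, adjusted p = 0.0035). TFDP2, its less abundant paralog, had 6.05 to 6.69 FPKM in siC and 6.62 to 7.09 FPKM in siMSI1, with overlapping groups (log2 fold change 0.095, adjusted p = 0.42).

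**Figure D3:**
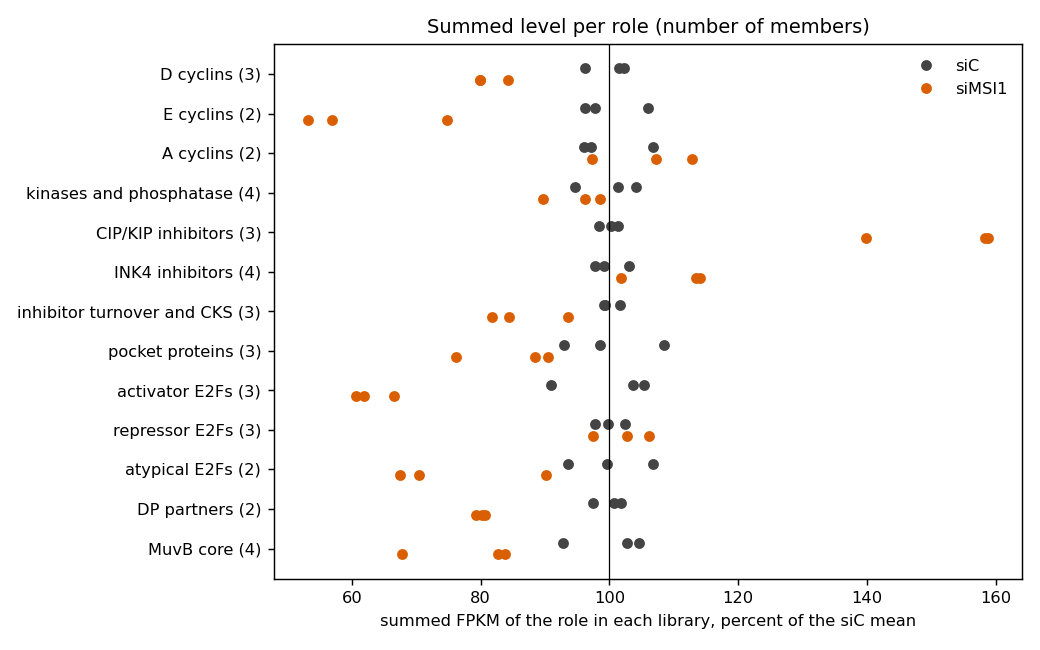
Summed FPKM of the members of each role in each library, as percent of the siC mean, with siC in dark grey and siMSI1 in orange, on an axis that does not start at 0. The sums of E-type cyclins (61.6% of siC on average) and activator E2Fs (63.0%) lie lowest in siMSI1, and that of the CIP/KIP inhibitors (152%) lies highest.

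Since several E2F genes are themselves E2F targets, the promoters of the members were searched for E2F cores. RefSeq windows (GRCh38.p14), from 250 bases before to 50 after a start site, were used for 31 of the 38 members. A window need not be at the first start site of its gene. The only window of RB1, chr13:48476200-48476499, lay inside the gene, which starts at 48303744. An E2F core was any of TTCCCGC or TTCGCGC or TTGCCGC or TTGGCGC, on either strand, and these can overlap one another. A core was found in 4 of the 6 lower members with a window (E2F1, E2F2, CDC25A and TFDP1), in 0 of the 3 higher ones (CDKN1A, CDKN1B and CDKN2A) and in 7 of the 22 tested members without a call, in any window of a gene. Of the 9157 tested genes matched by symbol, 26.0% had one. The CHR, the element bound by LIN54 (TTTGAA or TTCGAA, either strand), was found in 0 of the 6 lower members, 0 of the 3 higher ones and 8 of the 22 without a call, against 15.5% of the tested genes. Such letters are a description and not a bound site. The 4 windows of lower members with a core are shown, on GRCh38, 5′ to 3′ on the strand of the gene, with the E2F cores in capitals:

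E2F1, chr20:33686336-33686635, minus strand: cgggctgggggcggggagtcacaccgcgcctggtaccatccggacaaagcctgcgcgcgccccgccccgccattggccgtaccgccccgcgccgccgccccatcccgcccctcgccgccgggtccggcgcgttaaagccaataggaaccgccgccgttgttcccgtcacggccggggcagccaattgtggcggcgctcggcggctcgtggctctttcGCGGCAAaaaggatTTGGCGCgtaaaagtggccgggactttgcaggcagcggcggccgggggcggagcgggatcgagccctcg

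E2F2, chr1:23531184-23531483, minus strand: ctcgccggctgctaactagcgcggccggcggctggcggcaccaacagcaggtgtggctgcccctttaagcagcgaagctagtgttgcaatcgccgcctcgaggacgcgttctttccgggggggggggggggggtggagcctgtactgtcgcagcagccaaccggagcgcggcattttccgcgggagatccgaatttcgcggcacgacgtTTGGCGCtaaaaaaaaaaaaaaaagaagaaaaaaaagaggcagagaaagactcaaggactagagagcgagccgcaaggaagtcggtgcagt

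CDC25A, chr3:48188368-48188667, minus strand: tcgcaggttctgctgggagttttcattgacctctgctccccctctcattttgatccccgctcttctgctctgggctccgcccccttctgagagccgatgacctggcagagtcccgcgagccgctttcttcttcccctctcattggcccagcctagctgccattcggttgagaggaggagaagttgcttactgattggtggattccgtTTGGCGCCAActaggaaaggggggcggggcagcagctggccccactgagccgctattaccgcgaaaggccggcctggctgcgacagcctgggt

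TFDP1, chr13:113584503-113584802, plus strand: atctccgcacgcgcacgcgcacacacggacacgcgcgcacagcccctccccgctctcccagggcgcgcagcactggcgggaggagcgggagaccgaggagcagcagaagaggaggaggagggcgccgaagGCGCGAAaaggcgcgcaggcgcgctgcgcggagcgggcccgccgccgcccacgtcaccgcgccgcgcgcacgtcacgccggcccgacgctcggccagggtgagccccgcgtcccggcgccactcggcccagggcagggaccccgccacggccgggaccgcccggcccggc

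In E2F1, the cores began 33 and 19 bases before the start site. Those of CDC25A began 43 and 40 bases before it and overlap as a palindrome, and E2F2 had its core 41 bases before the start. The core of TFDP1 lay farther out, at 120 bases. In E2F3, which was not called, cores began 53 and 24 bases before 1 of its start sites.

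The MuvB core carries both the repressive DREAM complex and its activating form with B-MYB. None of its LIN genes, which are members here, was called. RBBP4, a subunit of the core outside the member list, was lower (limma adjusted p = 0.0041). LIN9 was at 4.96, 4.64 and 4.37 FPKM in siC against 4.15, 4.53 and 3.15 FPKM in siMSI1, with overlapping groups (log2 fold change −0.25, limma adjusted p = 0.24). LIN52 went from 4.56 ± 0.389 to 3.34 ± 0.124 FPKM (SD, n = 3 each) without overlap, a log2 fold change of −0.43 just outside the threshold (adjusted p = 0.016). LIN54, the subunit that binds DNA, had a log2 fold change of −0.45 with a standard error of 0.201 (adjusted p = 0.14), and LIN37 had 32 to 64 reads per library (adjusted p = 0.45).

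Among 25 other regulators of the cycle, 4 were lower, against 5.83% of all tested genes, and none was higher, against 5.15%. PKMYT1, a kinase that restrains CDK1, fell by 0.71 on the log2 scale (limma adjusted p = 0.0053). CDK1 itself fell by 0.50 (adjusted p = 0.0083), and RBBP4, the histone chaperone in the MuvB core, by 0.47 (adjusted p = 0.0041). CUL1, the scaffold of the SCF ligase that holds SKP2, fell by 0.42 (adjusted p = 0.0042), while SKP1, which links the F-box protein to it, had a log2 fold change of −0.091 and no call. The median of the list was −0.21. Without siMSI1 replicate 3 the count of lower genes was 4, and without siMSI1 replicate 2 it was 2. It was 0 without each of the others, with no filter on low genes, or with plain moderation. The number of all genes called fell in these settings too, from 1655 to between 517 and 1603.

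Of 30 genes of DNA synthesis that E2Fs are known to drive, 21 were lower, against 5.83% of all tested genes. None of the 30 was higher, against 5.15%, and the median log2 fold change of the list was −0.49. The largest falls were in GINS2 and CDC45, parts of the replicative helicase (−1.29 and −0.81), in CDC6, which loads that helicase (−0.95), and in CHAF1B, a subunit of a histone chaperone (−0.87), with adjusted p-values from limma of 0.00013, 0.00055, 0.00039 and 0.00052. Without siC replicate 1, 9 of the 30 were past the threshold, without siC replicates 2 and 3 it was 13 and 12, and without siMSI1 replicates 1 to 3 it was 13, 11 and 23. With no filter on low genes it was 12 and with plain moderation 11. Over all genes, 517 to 1603 were called in these settings, against 1655 with none of these changes. Part of this list was known to fall from earlier results of these data.

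The median was −0.24 over 20 genes of G2 and mitosis that DREAM and MuvB control. Against 5.83% of all tested genes, 3 of the 20 were lower. These were the proliferation antigen MKI67 (log2 fold change −0.41, adjusted p = 0.0055 from limma), the spindle factor TPX2 (−0.39, adjusted p = 0.0079) and the midzone protein PRC1 (−0.35, adjusted p = 0.0054). Larger values without a call were found for the kinetochore proteins CENPE (−0.81, adjusted p = 0.014) and CENPF (−0.57, adjusted p = 0.011), neither with overlapping groups, while CCNB1 and CDC20 came to 0.10 and −0.0092. The groups did not overlap, with siMSI1 lower, for 12 of the 20, against 21.5% of all tested genes. Below 0 were 18 of the 20 log2 fold changes, against 7534 of 15069 over all tested genes. Leaving out 1 library gave 5 lower genes without siMSI1 replicate 3, 1 without siC replicate 3 and 0 without each of the others. With no filter on low genes or with plain moderation the count was 0. All called genes numbered 517 to 1603 in these settings, against 1655 with none of these changes.

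Beside CDKN1A, 15 other genes known as p53 targets were examined. 4 of them were higher, against 5.15% of all tested genes, and none was lower, against 5.83%. The list median was 0.25. Above 0 were 12 of the 15 log2 fold changes and below 0 were 3, against 7535 and 7534 of 15069 over all tested genes. The groups did not overlap, with siMSI1 higher, for 7 of the 15, against 21.4% of all tested genes. With siMSI1 lower this was so for 1, against 21.5%. Leaving out 1 library gave 3 to 4 higher genes. BTG2, an antiproliferative cofactor of mRNA decay, rose by 1.51 on the log2 scale (limma adjusted p = 0.00013), and BBC3, which encodes the apoptosis factor PUMA, by 1.45 from a siC mean of 0.614 FPKM (adjusted p = 0.0019). SESN2, a stress sensor that other factors also induce, rose by 1.01 (adjusted p = 0.0014) and TP53I3, an oxidoreductase, by 0.73 (adjusted p = 0.0013). FDXR, a mitochondrial ferredoxin reductase, went the other way without a call, from 4.30 ± 0.399 to 2.94 ± 0.233 FPKM (SD, n = 3 each), with no overlap and a log2 fold change of −0.53 (adjusted p = 0.012). MDM2, the best known p53 target, came to 0.28 in log2 fold change (adjusted p = 0.15), and XPC, a DNA repair factor, to 0.023 (adjusted p = 0.83).

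**Figure D4:**
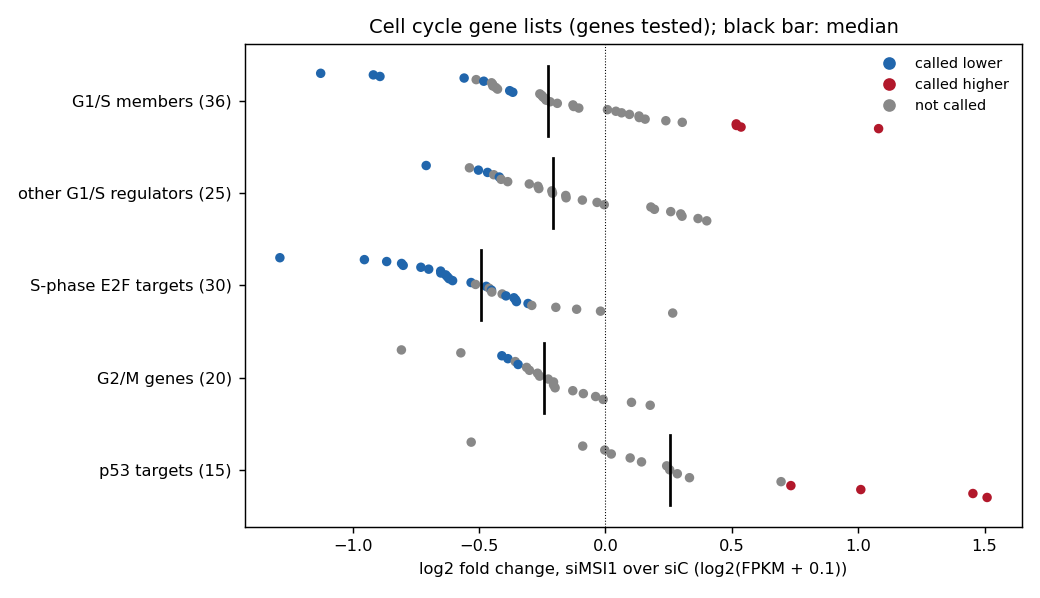
Log2 fold change of siMSI1 over siC for each tested gene of the members and of 4 further lists, with the list's median as a black bar. The median of the S-phase E2F targets lies lowest (−0.49), that of the p53 targets is above 0 (0.25), and the members lie on both sides.

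SKP2 and E2F1 were the members whose calls held in each of the 17 alternative settings. All 11 called members kept their direction in these settings, with adjusted p-values of at most 0.035 from limma. SKP2, E2F1 and CDKN1A remained past the threshold without siC replicate 1 and without siC replicate 2, and SKP2, E2F1 and CDKN2A without siC replicate 3. Without siMSI1 replicate 1, CCNE1, CDKN2A, SKP2 and E2F1 remained, without siMSI1 replicate 2 SKP2 and E2F1, and without siMSI1 replicate 3 all but E2F2 and E2F5.

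The gene bodies (GRCh38, GENCODE 44) of the members that changed most are chr5:36151989-36196849, plus strand, for SKP2, chr6:36676460-36687337, plus strand, for CDKN1A, chr19:29811991-29824312, plus strand, for CCNE1 and chr20:33675477-33686385, minus strand, for E2F1. The values are reads over all exons of a gene, and transcripts of a gene were not separated. Of the called members, 5 overlap an exon of another annotated gene on the opposite strand (GENCODE 44). Libraries were stranded, but whether the counting used strand is not given in the sources used here. NADK2, at SKP2, came to −0.32 in log2 fold change (limma adjusted p = 0.036). ENSG00000258554 and PMEL, at CDK2, had values of −0.20 and 0.089, CDKN2B-AS1, at CDKN2A, 0.18, and RBIS and ENSG00000254208, at E2F5, −0.022 and 1.38 (adjusted p = 0.92 and 0.083), all without a call. ENSG00000254208 had at most 9 reads in any library. DINOL, at CDKN1A, was not matched in the table. Among members without a call, CDK4 overlaps TSPAN31, which fell by 0.65 (adjusted p = 0.0058). The part of shared reads in these results was not tested.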

How the data were processed

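The authors clipped reads with cutadapt 1.14, aligned them to GRCh38 with HISAT2 2.1.0, counted them per gene with featureCounts 1.5.3 on an Ensembl annotation, and deposited FPKM per library and gene. The authors' own fold changes and p-values (edgeR 3.18.1, TMM) stand beside these and were not used. Whether the deposited FPKM carry the same TMM scaling was not tested. Replicates were not pooled.

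Members and gene lists were chosen with earlier results of these data known. Genes under a mean of 0.5 FPKM were left out, and log2(FPKM + 0.1) of the other 15069 was fitted with limma 3.58.1 (R 4.3.3, eBayes with trend and robust, no block), and p-values were adjusted over all of them. The threshold of 0.01 is that of the study. On this scale, changes of low genes are understated. FPKM times gene length was a whole multiple of 1 read (within 0.01 reads) for 100% of values above 0, which gave the reads quoted and their floor of 3 reads (0.0829 to 0.114 FPKM for a gene of 2 kb, counting error only). No pair of libraries within a group was a duplicate, and pairs across groups were not examined for this. Per-library values were printed for called members, MSI1 and the most abundant member of each role, and from each list the 4 called genes with the largest change were named. Other members are given by means or ranges (E2F3 and E2F7 by library), and genes named beside these (SKP1, CENPE, CENPF, CCNB1, CDC20, FDXR, MDM2, XPC) were added after their values were seen. Alternatives covered the added value, filter, scaling, moderation, threshold, replicate block, voom on recovered reads and each library left out. Protein sequences were not used here. Figures were made with matplotlib 3.10.9 in Python 3.11.15.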

Additional observations from a re-analysis of the deposited data

How the results depend on the processing

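The 7 lower and 4 higher members did not depend on the added value, on the scaling or on a filter at a mean FPKM of 1, which each gave 7 and 4. With no filter on low genes, 3 were lower and 0 were higher, and the same counts were found with plain moderation, the adjusted p of the 4 higher members lying between 0.011 and 0.031 over both settings. With a threshold of 0.05, 13 were lower and 4 higher, where 3787 of all tested genes were called. With voom on recovered reads it was 10 and 4, where 2690 genes were called. Adding a replicate block to voom gave 15 and 5, where 4870 genes were called. Leaving out 1 library gave 2 to 7 lower and 0 to 3 higher members.

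The number of changed genes was 792 with no filter, 847 with plain moderation, 3787 at a threshold of 0.05, 2690 with voom on recovered reads, 4870 with voom and a replicate block, and 517 to 1603 with 1 library left out. For the S-phase genes, 12 were lower with no filter, 11 with plain moderation and 9 to 23 with 1 library left out. Of the G2 and mitosis genes, 0 were lower with no filter or plain moderation, 9 at a threshold of 0.05, 6 with a replicate block, 7 with voom, 14 with voom and a replicate block, and 0 to 5 with 1 library left out. The other regulators had 0 lower with no filter or plain moderation, 7 at 0.05, 9 with voom and a replicate block, and 0 to 4 with 1 library left out. The p53 targets had 8 higher with voom and a replicate block. The cause of these differences was not tested.

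CDK4, CDK6 and E2F8, which lay near 0, changed sign. CDK4 had a log2 fold change of −0.066 with quantile normalization, −0.039 without siC replicate 2, −0.0051 without siMSI1 replicate 2 and −0.031 without siMSI1 replicate 3, within a range of −0.039 to 0.059 with 1 library left out. CDK6 had −0.061 without siC replicate 3, −0.042 without siMSI1 replicate 1 and −0.0075 without siMSI1 replicate 2, within −0.061 to 0.17, and E2F8 had 0.047 without siC replicate 2, within −0.25 to 0.047.

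Whether the replicate numbers pair the libraries is not given in the labels. The deviations of same-numbered libraries correlated at −0.066, 0.078 and 0.083, and those of differently numbered ones at −0.14 to 0.070. A replicate block gave 2250 changed genes, against 1655 without it, and the cause of this was not tested. With a replicate block, 9 members were lower and 3 higher, E2F5 being no longer past the threshold (limma adjusted p = 0.011) and CCND3 and E2F7 being past it (0.0049 and 0.0099).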

Other observations

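Ratios of 2 members within a library, chosen after their values were seen, set these shifts side by side without the scaling of the library. The ratio of E2F1 to E2F3 FPKM was 7.50, 5.61 and 8.05 in siC and 2.84, 2.51 and 3.89 in siMSI1. That of E2F4 to E2F5 was 4.42, 3.33 and 3.40 in siC and 2.19, 2.04 and 2.29 in siMSI1. CDKN1B, which encodes p27, was below SKP2 in siC, with ratios of 0.696, 0.723 and 0.796, and above it in siMSI1, with ratios of 2.28, 2.42 and 2.25. TFDP1 to TFDP2 went from 8.18 ± 0.682 to 5.87 ± 0.246, CCNE1 to CCNE2 from 1.34 ± 0.0693 to 0.966 ± 0.164 and CDK2 to CDK4 from 0.227 ± 0.00600 to 0.175 ± 0.0135 (SD, n = 3 each). Each ratio holds at least 1 called member, so that these values are a description of the same measurements. An exact permutation test over the libraries gave p = 0.1 for each ratio. This is the lowest p that 3 against 3 libraries allow, so the test cannot tell the ratios apart and nothing is drawn from it.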
